A study of Homo sapiens with 18 samples.

Results

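The BCL2 family of apoptosis regulators was followed through 3 days of phorbol ester treatment in 3 human myeloid leukaemia lines. Its 10 members here were BCL2, BCL2L1, MCL1, BCL2A1, BCL2L11, BAX, BAK1, BID, PMAIP1 and BBC3. They were chosen by name as the probe sets that the annotation of the array platform assigns to a single member. This gave 128 of the 287329 probe sets with deposited values and 10 of the 16241 genes tested. Every member had at least 6 such probe sets, so none was lost to the minimum of 3 that was set for a gene.

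The 6 groups, of 3 arrays each, were HL60 with PMA, HL60 with DMSO, THP-1 with PMA, THP-1 with DMSO, U937 with PMA and U937 with DMSO. PMA (phorbol 12-myristate 13-acetate) activates protein kinase C and drives such lines towards a macrophage-like, non-dividing state. It was given at 30 nM, and the DMSO groups received its solvent, dimethyl sulfoxide, for the same 3 days. HL60 is a promyelocytic line, while THP-1 and U937 are monocytic, and each is 1 established line in culture, so each stands for 1 clone of leukaemic cells. Each array measured total RNA on an Affymetrix exon array, on which a probe set reads a short stretch of transcript. Levels are in log2 units as deposited, and the level of a gene is the mean over its probe sets.

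Members of this family decide whether a cell under stress opens the outer membrane of its mitochondria and dies. BAX and BAK1 form the pores, the guardians BCL2, BCL2L1 (BCL-XL), MCL1 and BCL2A1 (A1) hold them in check, and the BH3-only proteins BCL2L11 (BIM), BID, PMAIP1 (NOXA) and BBC3 (PUMA) bind guardians or effectors to release or activate the pores. In myeloid cells BCL2 is a guardian of progenitors and blasts, and MCL1 and BCL2A1 are known for keeping granulocytes alive.

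With PMA, the guardians moved in opposite directions. BCL2 was lower in HL60, THP-1 and U937, and MCL1 and BCL2A1 were higher in these 3 lines. BCL2L1 was higher in HL60 and THP-1. BCL2L11 was lower in HL60, where BAK1 was higher, and BID was lower in HL60 and higher in THP-1. BAX, PMAIP1 and BBC3 passed the test in no line. A gene passed, or was called, at an adjusted p under 0.05 in limma, with Benjamini-Hochberg adjustment over all 16241 genes.

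In HL60, 4 members were called higher and 3 lower, where 12.3% of all genes were called higher and 10.7% lower (23% in all). In THP-1, 4 members were called higher and 1 lower, against 9.38% and 13.2% of all genes (22.6% in all). In U937, 2 were called higher and 1 lower, against 5.5% and 16.5% (22% in all). The median change over the 10 members was 0.39 in HL60, 0.39 in THP-1 and 0.23 in U937, beside 0.13, 0.04 and -0.07 over all genes. The PMA and DMSO arrays did not overlap for 8 members in HL60, 6 in THP-1 and 5 in U937. The share of all genes without overlap was 46.1%, 43% and 25.4%. The balance of directions among all genes depended on scaling. Of the genes called, 58.5% in THP-1 and 75.0% in U937 were lower as deposited, against 49.9% and 51.7% after quantile normalization and 48.3% and 49.7% with arrays centred on their medians. The U937 median of all genes was then 0.12 and 0.17, and 5 members were called higher and 1 lower in U937 under both scalings.

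**Figure D1:**
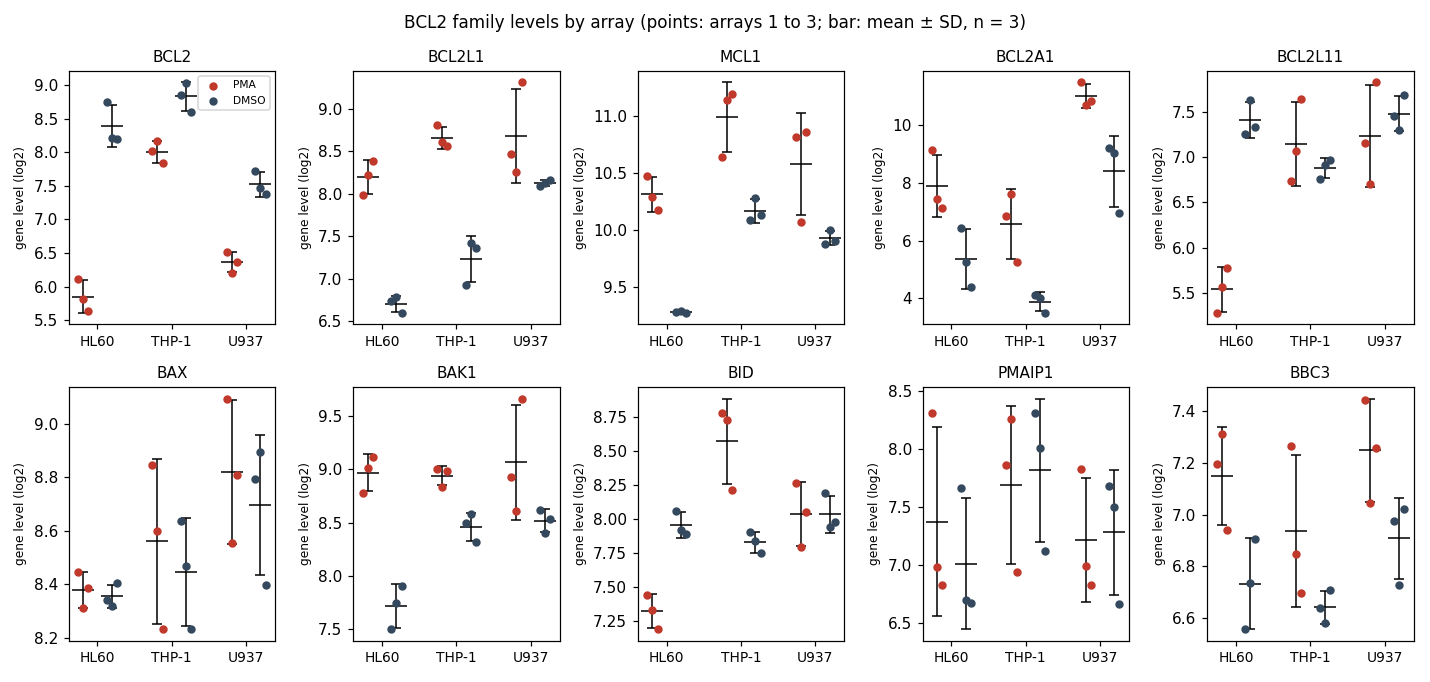
Gene level (log2, vertical axis) of each of the 10 members on each array, by line, with PMA in red left of DMSO in dark blue. Points are arrays 1 to 3 from left to right, bars are the mean ± SD of 3 arrays, and each panel has its own scale. BCL2 lies lower with PMA in all 3 lines, MCL1 and BCL2A1 lie higher, and BCL2L11 separates in HL60 alone among the lines.

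Some arrays touch several of these values. The U937 arrays numbered 2, PMA and DMSO, shared at most 5 exactly tied values with any other array, whereas the other arrays of a line shared 39 to 116 with each other. Arrays of different lines shared at most 7. By these ties the lines look as if each was normalized on its own, and levels of different lines are set side by side here without a test. The U937 PMA 2 array also had the lowest median (6.18, against 6.43 to 6.95 on the others) and held 83228 distinct values, against 214471 to 220516. Without both U937 arrays numbered 2, U937 had 4 members called higher and 1 lower.

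Of 14 myeloid markers listed, 13 were tested, and many moved with PMA. In HL60 2 were called higher and 7 lower, in THP-1 3 and 8, and in U937 3 and 4, with median changes of -1.13, -0.81 and -0.05. The granule protein genes ELANE, PRTN3, AZU1 and CTSG were called lower in the 3 lines, and CSF1R, the receptor of a macrophage growth factor, and the integrin gene ITGAM were called higher. The other markers tested, besides CD33 and SPI1, were LYZ, CEBPA, MPO, CD14 and CD4. In THP-1 more of these were called lower than higher, so CSF1R and ITGAM do not stand for the whole list. CD33 and SPI1 were called in no line. The group means of CD33 ran between 8.10 and 8.75 and those of SPI1 between 8.50 and 9.79, whereas CD3E lay between 4.36 and 4.87, below the 30th percentile of probe-set levels (5.17). Of 8 T and NK cell markers, 7 stayed at or below 6.41 in every group mean. The other, NKG7, averaged 6.45 with PMA and 8.03 with DMSO in HL60, 7.49 and 8.34 in THP-1, and 11.19 and 11.30 in U937. Of 4 proliferation genes listed, 4 were called lower in HL60, 3 in THP-1 and 3 in U937, with median changes of -3.07, -1.74 and -2.03. Among them, TOP2A changed by -4.99 ± 0.27 in HL60, -2.91 ± 0.27 in THP-1 and -2.57 ± 0.27 in U937, passing in each (adjusted p = 4.34e-10, 5.66e-07 and 2.86e-06), beside the changes of the members. The part of TOP2A and of the myeloid markers in them was not tested. In such bulk samples, fewer cells expressing a gene and less of its RNA per cell cannot be told apart. Changes here and below are PMA minus DMSO in log2 units ± SE.

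BCL2, the founding guardian of the family, had levels of 6.11, 5.81 and 5.63 on the HL60 PMA arrays and 8.75, 8.21 and 8.21 on the HL60 DMSO arrays. In THP-1 it stood at 8.02, 8.17 and 7.84 with PMA and at 8.86, 9.03 and 8.61 with DMSO. The U937 values were 6.51, 6.21 and 6.37 with PMA and 7.73, 7.47 and 7.37 with DMSO. All 3 PMA arrays lay below all 3 DMSO arrays in every line. BCL2 fell by 2.54 ± 0.19 in HL60, a 5.82-fold change (adjusted p = 1.97e-08), by 0.82 ± 0.19 in THP-1 (adjusted p = 0.00424) and by 1.16 ± 0.19 in U937 (adjusted p = 0.000258). The fall was deeper in HL60 than in THP-1 by 1.72 ± 0.27 (adjusted p = 0.000515 for the difference in limma) and deeper than in U937 by 1.38 ± 0.27 (adjusted p = 0.00319). Between THP-1 and U937 the difference was 0.34 ± 0.27 and did not pass (adjusted p = 0.714). Of all genes, 7.78%, 7.73% and 4.77% were called in these 3 comparisons of lines.

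BCL2A1, a guardian best known as an NF-kappaB target in leukocytes, had the widest range of group means of the 10 members (7.12 log2 units). In HL60 its levels were 9.13, 7.44 and 7.12 with PMA and 6.44, 5.26 and 4.38 with DMSO. THP-1 gave 6.86, 7.63 and 5.26 with PMA and 4.12, 4.02 and 3.50 with DMSO. U937 gave 11.48, 10.69 and 10.83 with PMA and 9.19, 9.02 and 6.97 with DMSO. Within each line every PMA array was above every DMSO array, and the THP-1 DMSO arrays lay under the 30th percentile, so that the change there is approximate. The HL60 DMSO 3 array (4.38) also lay under that percentile (5.17), and the HL60 DMSO mean of 5.36 was close to it. The HL60 change is therefore approximate too. BCL2A1 rose by 2.53 ± 0.67 in HL60 (adjusted p = 0.00899), by 2.70 ± 0.67 in THP-1 (adjusted p = 0.00628) and by 2.61 ± 0.67 in U937 (adjusted p = 0.00830), or 5.78-, 6.52- and 6.09-fold. These 3 changes differed from each other by at most 0.17 ± 0.94, and no difference between lines passed (adjusted p = 0.999, 0.981 and 0.985). With so wide an SE, the lines are not shown to be alike. Of the 6 probe sets, 4, 3 and 4 were called higher in HL60, THP-1 and U937, where 7.41%, 5.08% and 3.19% of all probe sets were. In THP-1 their changes ran between 0.21 (probe set 3635207, under the 30th percentile) and 4.98 (probe set 3635200). In U937 these 2 changed by 3.52 and 1.87.

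The spread of BCL2A1 between arrays of a group was wide (SD 0.33 to 1.24), and arrays of the same number deviated together. The HL60 arrays numbered 1 were the highest of both HL60 groups, and taken number by number PMA exceeded DMSO by 2.68, 2.18 and 2.73. The differences within a number were 2.74, 3.61 and 1.76 in THP-1 and 2.28, 1.67 and 3.87 in U937. With the array number as a block the SE fell to 0.35, against 0.67 without it. The HL60 call was lost without HL60 DMSO 3 (2.04, adjusted p = 0.0520) or without HL60 PMA 1 (1.92, adjusted p = 0.0551), and the U937 call without U937 DMSO 3 (1.89, adjusted p = 0.0520).

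**Figure D2:**
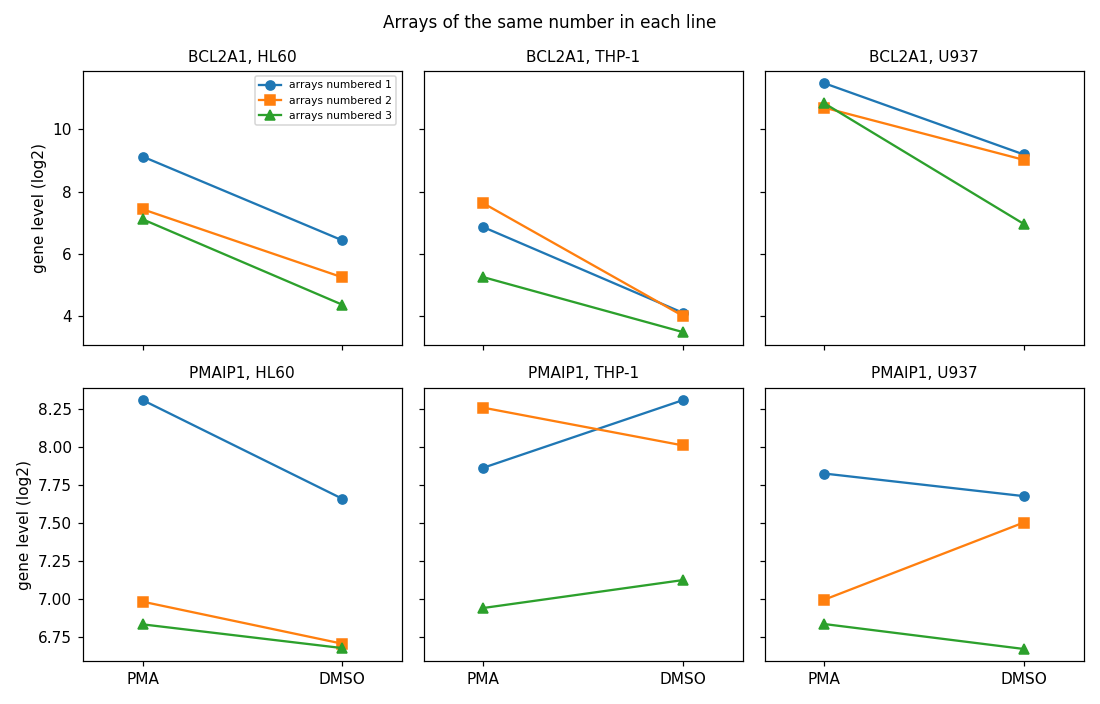
Gene level (log2, vertical axis) of BCL2A1 (top) and PMAIP1 (bottom) with PMA at the left and DMSO at the right of each panel, 1 panel per line, with a line joining arrays of the same number. BCL2A1 is higher with PMA in all 9 pairs, by 1.67 to 3.87. PMAIP1, drawn on a narrower scale, is higher with PMA in each HL60 pair, by 0.16 to 0.65. Its differences have both signs in THP-1 and in U937.

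MCL1, a guardian whose protein turns over fast, had levels of 10.48, 10.29 and 10.17 in HL60 with PMA and 9.28, 9.28 and 9.27 with DMSO. In THP-1 they were 10.64, 11.14 and 11.20 with PMA and 10.08, 10.28 and 10.13 with DMSO. In U937 they were 10.81, 10.07 and 10.86 with PMA and 9.88, 10.00 and 9.91 with DMSO. The groups did not overlap in any line, although the U937 PMA 2 array lay only 0.07 above its DMSO partner. MCL1 rose by 1.03 ± 0.20 in HL60 (2.05-fold, adjusted p = 0.000821), by 0.83 ± 0.20 in THP-1 (adjusted p = 0.00576) and by 0.65 ± 0.20 in U937 (adjusted p = 0.0262). The U937 call did not hold with the 6 arrays of U937 alone (adjusted p = 0.191), nor without U937 DMSO 1, DMSO 2, DMSO 3, PMA 1 or PMA 3 (0.51 to 0.69, adjusted p between 0.0509 and 0.106). No difference between lines passed, the widest being 0.38 ± 0.29 between HL60 and U937 (adjusted p = 0.571).

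BCL2L1, which encodes BCL-XL as its long form, had levels of 7.99, 8.22 and 8.39 in HL60 with PMA and 6.73, 6.78 and 6.60 with DMSO. In THP-1 they were 8.80, 8.61 and 8.57 with PMA and 6.92, 7.42 and 7.35 with DMSO. In U937 they were 8.47, 8.26 and 9.31 with PMA and 8.09, 8.12 and 8.16 with DMSO. The groups lay apart in all 3 lines, widely in HL60 and THP-1, while U937 PMA 3 alone lay far above its controls. BCL2L1 rose by 1.50 ± 0.22 in HL60 (2.82-fold, adjusted p = 6.05e-05) and by 1.43 ± 0.22 in THP-1 (2.69-fold, adjusted p = 0.000135). The U937 change of 0.56 ± 0.22 did not pass (adjusted p = 0.0917). It was 0.77 and passed without U937 PMA 2 (adjusted p = 0.0168) or without both U937 arrays numbered 2 (adjusted p = 0.0423), it was 0.81 and passed after quantile normalization (adjusted p = 0.00339), and it was 0.24 without U937 PMA 3 (adjusted p = 0.434). The difference between HL60 and U937 was 0.94 ± 0.32 (adjusted p = 0.0847), and it passed with the array number as a block (adjusted p = 0.0389).

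**Figure D3:**
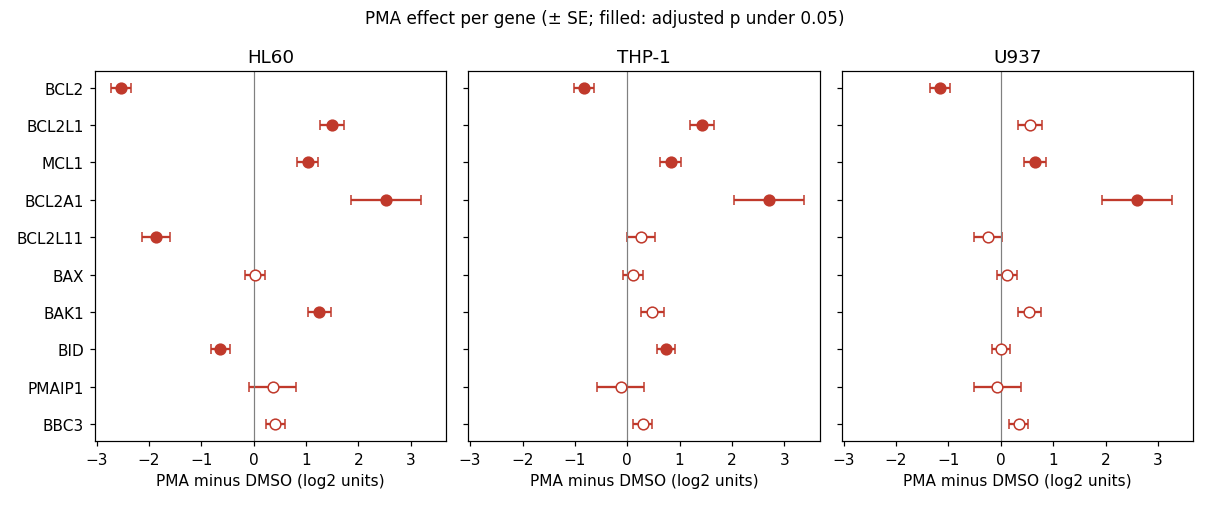
PMA minus DMSO (log2 units, horizontal axis) for each member, 1 panel per line, with bars of ± 1 SE and filled points where the adjusted p is under 0.05. BCL2 lies left of 0 in each line, at -2.54, -0.82 and -1.16, and BCL2A1 lies near 2.6 in each, with the widest bars.

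Of the pore-forming effectors, BAK1 had levels of 8.78, 9.02 and 9.12 in HL60 with PMA and 7.50, 7.75 and 7.91 with DMSO. The groups did not overlap, and BAK1 rose by 1.25 ± 0.22 (2.38-fold, adjusted p = 0.000252). In THP-1 it changed by 0.48 ± 0.22 (adjusted p = 0.132) and in U937 by 0.55 ± 0.22 (adjusted p = 0.0848), without passing. With the array number as a block the U937 change passed (adjusted p = 0.0278), as it did without U937 PMA 2 (0.78, adjusted p = 0.00856). Without U937 PMA 3 it was 0.25 and did not pass (adjusted p = 0.399). The THP-1 change passed without U937 PMA 2 (adjusted p = 0.0488) or U937 PMA 3 (adjusted p = 0.0337), which share the estimate of spread. Both changes also passed after quantile normalization (0.60, adjusted p = 0.0110, in THP-1, and 0.80, adjusted p = 0.00158, in U937). BAX, the other effector, lay between 8.23 and 8.85 on the HL60 and THP-1 arrays of both treatments and between 8.40 and 9.09 on the U937 arrays. The PMA and DMSO arrays overlapped in each line. Its changes were 0.02, 0.11 and 0.12 in HL60, THP-1 and U937, each ± 0.19 (adjusted p = 0.943, 0.728 and 0.815).

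Among the BH3-only members, BCL2L11 encodes BIM, a killer that many growth factors hold down. Its levels were 5.28, 5.57 and 5.77 in HL60 with PMA and 7.26, 7.63 and 7.33 with DMSO. The 2 groups were more than 1 log2 unit apart at their closest, and BCL2L11 fell by 1.87 ± 0.26 (3.65-fold, adjusted p = 2.97e-05). In THP-1 the values were 6.73, 7.06 and 7.64 with PMA and 6.76, 6.92 and 6.97 with DMSO. In U937 they were 7.16, 6.70 and 7.83 with PMA and 7.45, 7.30 and 7.68 with DMSO. The groups overlapped in both lines, with changes of 0.26 ± 0.26 in THP-1 (adjusted p = 0.534) and -0.25 ± 0.26 in U937 (adjusted p = 0.662). The change in HL60 differed from that in THP-1 by -2.13 ± 0.37 (adjusted p = 0.00113) and from that in U937 by -1.62 ± 0.37 (adjusted p = 0.00979).

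BID, which caspase-8 cleaves to link death receptors to mitochondria, had levels of 7.44, 7.33 and 7.19 in HL60 with PMA and 8.06, 7.92 and 7.89 with DMSO. In THP-1 they were 8.77, 8.73 and 8.21 with PMA and 7.90, 7.84 and 7.75 with DMSO. In U937 they were 8.27, 7.79 and 8.05 with PMA and 8.19, 7.94 and 7.97 with DMSO. The PMA arrays were all below the DMSO arrays in HL60, all above them in THP-1, and overlapped them in U937. BID fell by 0.63 ± 0.18 in HL60 (adjusted p = 0.0123) and rose by 0.74 ± 0.18 in THP-1 (adjusted p = 0.00463), with 0.00 ± 0.18 in U937 (adjusted p = 0.999). The effects in HL60 and THP-1 differed by -1.38 ± 0.25 (adjusted p = 0.00161). With median polish in place of the mean the HL60 change was -0.27 (adjusted p = 0.301), and without HL60 DMSO 1 (adjusted p = 0.0574) or HL60 PMA 3 (adjusted p = 0.0609) it did not pass. The difference of HL60 from U937 was -0.64 ± 0.25 (adjusted p = 0.155) and that of THP-1 from U937 0.74 ± 0.25 (adjusted p = 0.122). Both passed with the array number as a block (adjusted p = 0.0468 and 0.0326).

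PMAIP1 encodes NOXA, a binder of MCL1, and BBC3 encodes PUMA. PMAIP1 ran between 6.67 and 8.31 over the HL60 arrays, 6.94 and 8.31 over the THP-1 arrays and 6.67 and 7.83 over the U937 arrays, with PMA and DMSO overlapping in each line. Its changes were 0.36, -0.13 and -0.07, each ± 0.45 (adjusted p = 0.627, 0.878 and 0.974). With the array number as a block the SE of PMAIP1 fell to 0.18, and no change passed (adjusted p = 0.148, 0.621 and 0.873). BBC3 stood at 7.19, 7.31 and 6.94 in HL60 with PMA and at 6.56, 6.74 and 6.91 with DMSO. These groups did not overlap, nor did those of U937, but the changes of 0.42 in HL60, 0.30 in THP-1 and 0.34 in U937, each ± 0.18, did not pass (adjusted p = 0.116, 0.281 and 0.225). After quantile normalization the U937 change of BBC3 was 0.58 and passed (adjusted p = 0.0243).

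RefSeq sequence (GRCh38.p14) around the annotated start was found for 9 of the 10 members, all but MCL1, which was not searched for motifs. The windows of the member that rose most, BCL2A1, and of the 2 with the deepest falls in HL60, BCL2 and BCL2L11, are shown because these genes carry the changes above. Each runs from 250 bases before the start to 50 bases after it, 5′ to 3′ on the strand of the gene. The positions are chr15:79971147-79971446 on the minus strand, chr18:63319720-63320019 on the minus strand and chr2:111120664-111120963 on the plus strand. Capitals mark matches, on either strand, to the motifs listed after the sequences.
BCL2A1: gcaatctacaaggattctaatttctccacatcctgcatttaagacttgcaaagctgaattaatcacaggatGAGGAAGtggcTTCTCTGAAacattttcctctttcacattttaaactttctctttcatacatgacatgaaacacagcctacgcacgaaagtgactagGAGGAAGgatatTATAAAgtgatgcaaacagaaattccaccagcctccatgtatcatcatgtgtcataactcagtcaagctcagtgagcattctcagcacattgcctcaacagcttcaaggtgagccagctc
BCL2: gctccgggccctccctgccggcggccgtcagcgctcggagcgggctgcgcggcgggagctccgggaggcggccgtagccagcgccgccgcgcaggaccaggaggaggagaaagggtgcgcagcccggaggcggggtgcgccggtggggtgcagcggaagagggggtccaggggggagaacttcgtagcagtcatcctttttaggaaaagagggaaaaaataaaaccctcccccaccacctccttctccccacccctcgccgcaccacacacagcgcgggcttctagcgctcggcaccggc
BCL2L11: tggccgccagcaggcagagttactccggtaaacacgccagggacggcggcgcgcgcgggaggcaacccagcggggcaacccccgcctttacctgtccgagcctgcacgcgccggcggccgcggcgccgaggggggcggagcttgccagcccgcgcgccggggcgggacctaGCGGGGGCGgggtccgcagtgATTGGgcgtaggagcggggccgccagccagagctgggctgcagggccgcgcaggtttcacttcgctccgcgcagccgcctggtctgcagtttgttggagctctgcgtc

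The BCL2A1 window is 41% G and C, against 70.7% for BCL2 and 74.7% for BCL2L11. Motifs searched were AP-1 (TGANTCA), the cyclic AMP element CRE (TGACGTCA), the PU.1 core (GAGGAAG), EGR (GCGGGGGCG), STAT (TTCNNNGAA), the CCAAT box, the TATA box (TATAAA) and the consensus of NF-kappaB. The BCL2A1 window held 2 PU.1 matches, at -179 and -82 bases relative to the start, 1 STAT match at -168 and 1 TATAAA at -70. That of BCL2 matched none of the 8 motifs, and that of BCL2L11 held 1 EGR match at -79 and 1 CCAAT match at -58. Over all 35116 windows, 13.6% held the PU.1 core, 7.66% the STAT motif, 11.5% TATAAA, 5.07% the EGR motif and 34.6% CCAAT. AP-1 was found in 7.71%, CRE in 1.85% and the NF-kappaB consensus in 5.91% of all windows. Among the 9 members, BBC3 alone held an AP-1 match, and none held CRE or the NF-kappaB consensus. These are matches of letters in a short window and were not tied to any binding.

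The probe sets of MCL1 and BCL2L1 were examined because both transcripts are known to be spliced into forms of opposite function, MCL1 by skipping its middle exon and BCL2L1 into the long guardian and a short killer form. The positions of the probe sets within the genes were not used here. For MCL1, all 13 probe sets had a positive change in HL60, THP-1 and U937. Of these, 9, 6 and 2 were called higher and none lower, where 7.41%, 5.08% and 3.19% of all probe sets were called higher in the 3 lines. In HL60 probe set 2434461 rose most, by 1.61 ± 0.45 (adjusted p = 0.0209). In THP-1 the highest change was that of probe set 2434460 (1.11 ± 0.32, adjusted p = 0.0286), and in U937 that of probe set 2434469 (0.87 ± 0.27, adjusted p = 0.0428). These single calls were fragile. That of probe set 2434461 was lost without HL60 DMSO 1, PMA 2 or PMA 3, that of probe set 2434460 without THP-1 DMSO 1, DMSO 3, PMA 2 or PMA 3, and that of probe set 2434469 under 14 of 24 alternatives.

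Probe set 2434470 of MCL1 had the smallest change in every line, 0.15 ± 0.21 in HL60, 0.15 ± 0.21 in THP-1 and 0.12 ± 0.21 in U937. It read 12.65, 12.87 and 12.55 on the HL60 PMA arrays and 12.26, 12.65 and 12.69 on the HL60 DMSO arrays, and its mean over all arrays was 12.57 in a table whose highest value is 14.44. To compare probe sets with their gene, the mean of the gene on the same array was subtracted from each, and a shift in this index counted as called when it reached 1 log2 unit with an adjusted p under 0.05. For probe set 2434470 the index changed by -0.88 ± 0.21 in HL60 (adjusted p = 0.0185), -0.67 ± 0.21 in THP-1 (adjusted p = 0.118) and -0.53 ± 0.21 in U937 (adjusted p = 0.302), so it passed the p threshold in HL60 but stayed under 1 log2 unit and was not called. Without HL60 DMSO 1 the HL60 change was -1.02 and passed (adjusted p = 0.0192). No MCL1 probe set was called in any line, where 3.46%, 1.79% and 1.23% of the 175163 probe sets tested were called in HL60, THP-1 and U937.

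For BCL2L1, all 9 probe sets likewise had a positive change in the 3 lines, with 5, 6 and 0 called higher in HL60, THP-1 and U937. Probe set 3902526 rose most in HL60, with 7.57, 8.11 and 8.35 on the PMA arrays and 5.78, 5.90 and 6.32 on the DMSO arrays, a change of 2.01 ± 0.43 (adjusted p = 0.00304). The groups were clearly apart for it. The smallest HL60 change was that of probe set 3902524 (0.83 ± 0.31, adjusted p = 0.0919), which passed with the array number as a block (adjusted p = 0.0359). In THP-1 the changes ran between 0.95 ± 0.34 for probe set 3902525 (adjusted p = 0.0766) and 1.73 ± 1.16 for probe set 3902490 (adjusted p = 0.383), and both passed with the block (adjusted p = 0.0479 and 0.00647). Probe set 3902490 spread widely between arrays, reading 8.61, 8.89 and 5.19 with PMA and 6.01, 6.89 and 4.59 with DMSO in THP-1, which overlap. Some probe sets of other members also read low on THP-1 PMA 3. With PMA in THP-1, probe set 2434456 of MCL1 read 11.49, 11.90 and 9.85, and probe set 3790713 of PMAIP1 8.55, 9.64 and 5.56. Others did not, such as probe set 3902491 of BCL2L1 (9.38, 9.17 and 9.25). The cause was not tested. In U937 the lowest change was 0.08 ± 1.16 for probe set 3902490 and the highest 0.93 ± 0.41 for probe set 3902523 (adjusted p = 0.175). The index of no BCL2L1 probe set was called in any line.

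**Figure D4:**
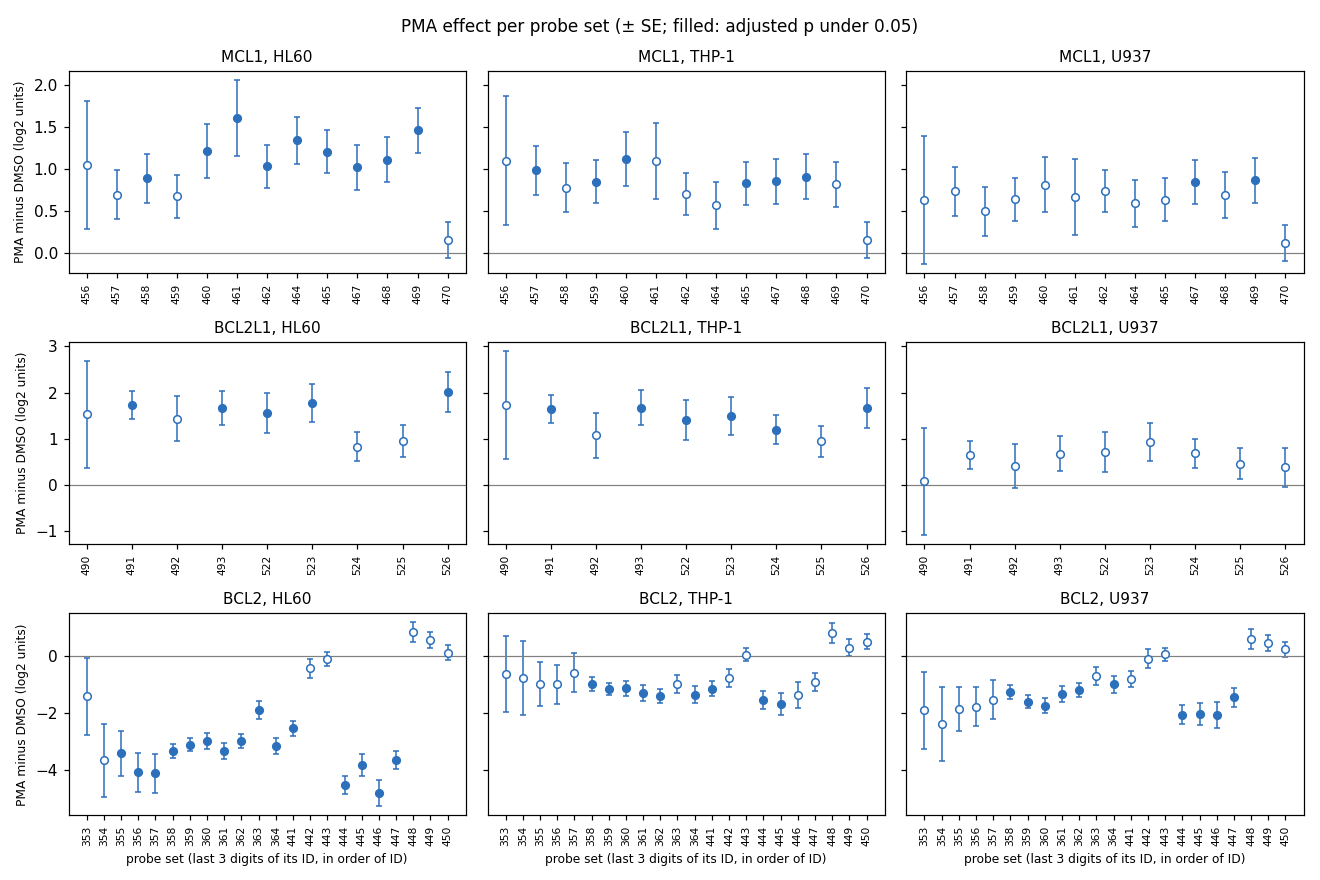
PMA minus DMSO (log2 units, vertical axis) of each probe set of MCL1, BCL2L1 and BCL2 (rows) in the 3 lines (columns), in order of probe-set ID on the horizontal axis, with bars of ± 1 SE and filled points where the adjusted p is under 0.05. MCL1 and BCL2L1 lie above 0 throughout, and BCL2 holds probe sets near 0 beside others that lie at -3 and below in HL60.

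BCL2 itself was not uniform across its 22 probe sets, an observation made after its values were seen. In HL60, 15 probe sets were called lower and none higher, where 8.39% of all probe sets were called lower, and the changes ran between -4.81 and 0.82. The index was called for 7 of the 20 probe sets tested, 5 above the gene and 2 below it. Of the 2 below, probe set 3811446 lost its call with the HL60 arrays alone (adjusted p = 0.0558), without HL60 DMSO 2 (adjusted p = 0.0616) and without HL60 PMA 1 (adjusted p = 0.0548). The 5 above, numbered 3811442, 3811443, 3811448, 3811449 and 3811450, changed by -0.44 to 0.82, whereas the other 17 changed by -4.81 to -1.41 with a median of -3.34. Probe set 3811450 read 10.41, 10.84 and 10.35 with PMA and 10.05, 10.33 and 10.88 with DMSO, which overlap. By contrast, probe set 3811444 read 5.13, 5.77 and 4.92 with PMA and 9.81, 9.76 and 9.80 with DMSO. Over the 6 groups the means of probe set 3811450 ran between 10.23 and 10.73, and those of probe set 3811444 between 5.27 and 10.08. Whether the 5 probe sets above the gene read BCL2 RNA was not tested. The gene mean of BCL2 therefore averages probe sets that fell with others that did not pass. In THP-1, 9 probe sets were called lower and in U937 10, where 8.84% and 9.9% of all probe sets were. The index of 2 probe sets in THP-1 and of 4 in U937 was called above the gene, all of them among the 5 of HL60, but none of these calls held with limma's diffSplice or with the arrays of the line alone.

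Among the other members, the index of BCL2L11 was called in HL60 for 1 probe set, 2500292, which stood at a mean of 13.01 over all arrays and changed by -0.32 ± 0.25, while 17 of the 18 probe sets of BCL2L11 were called lower. For BCL2A1, 3 of 5 probe sets tested were called in THP-1, and none of these calls held with diffSplice. BID had 2 of 18 called in HL60, and neither held with the HL60 arrays alone. No probe set of BAX, BAK1, PMAIP1 or BBC3 was called in any line.

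Further members of the family were counted from a list of 18 genes, of which 17 were tested. In HL60 2 were higher, 1 lower and 14 not called, in THP-1 1, 1 and 15, and in U937 1, 2 and 14. Of all genes, 23%, 22.6% and 22% were called in these lines, shares to set beside this list and each list below. The lists are counted as a description. BMF, a BH3-only protein bound to the actin motor in healthy cells, rose in the 3 lines, by 1.57 ± 0.21 in HL60 (adjusted p = 2.26e-05), 1.58 ± 0.21 in THP-1 (adjusted p = 3.04e-05) and 1.40 ± 0.21 in U937 (adjusted p = 0.000124). BNIP3L, a receptor for the removal of mitochondria, rose by 1.13 ± 0.33 in HL60 (adjusted p = 0.0157), and the related BNIP3 fell by 1.38 ± 0.31 (adjusted p = 0.00246). Without HL60 PMA 1 or HL60 DMSO 2 the call of BNIP3L was lost (0.91, adjusted p = 0.0823, and 0.99, adjusted p = 0.0776). BNIP2 fell by 0.98 ± 0.32 in THP-1 (adjusted p = 0.0328), and BNIP1 fell by 1.18 ± 0.38 (adjusted p = 0.0311) and BCL2L12 fell by 0.71 ± 0.21 (adjusted p = 0.0175) in U937. Each of these 3 calls was lost when 1 of at least 2 single arrays of its line was left out, to an adjusted p of up to 0.146, 0.159 and 0.0978. After quantile normalization the U937 calls of BNIP1 and BCL2L12 were lost as well (adjusted p = 0.0568 and 0.0818). That of BCL2L12 was also lost with centred arrays (adjusted p = 0.0684) and with the U937 arrays alone (adjusted p = 0.136). The guardian BCL2L2 changed by 0.10, -0.10 and 0.16 in HL60, THP-1 and U937, each ± 0.20, and did not pass.

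Downstream of the pores, cytochrome c assembles the apoptosome from APAF1 and CASP9. Of 14 apoptosome and mitochondrial genes tested, 1 was higher and 4 lower in HL60, 0 and 1 in THP-1, and 1 and 4 in U937. CASP9 rose by 1.71 ± 0.24 in HL60 (adjusted p = 3.02e-05) and by 0.70 ± 0.24 in U937 (adjusted p = 0.0452), a call lost under 18 of 26 alternatives. APAF1 fell by 1.55 ± 0.25 in HL60 (adjusted p = 0.000128) and by 1.00 ± 0.25 in THP-1 (adjusted p = 0.00681). Of the 7 inhibitor of apoptosis genes, BIRC5 (survivin), which also serves in mitosis, fell by 2.97 ± 0.22 in HL60 (adjusted p = 1.55e-08), 1.68 ± 0.22 in THP-1 (adjusted p = 2.11e-05) and 1.50 ± 0.22 in U937 (adjusted p = 7.95e-05). BIRC3 rose by 1.11 ± 0.29 in HL60 (adjusted p = 0.00901) and 0.95 ± 0.29 in U937 (adjusted p = 0.0266), with both groups of both lines under the 30th percentile. The HL60 call was lost without HL60 PMA 1 or PMA 2, and the U937 call without U937 DMSO 1, DMSO 2, DMSO 3, PMA 1 or PMA 2 (adjusted p of up to 0.0586 and 0.127). With the HL60 arrays alone the HL60 call of BIRC3 was lost too (adjusted p = 0.0722). In all, 2, 1 and 1 of these 7 were higher and 2, 2 and 1 lower in HL60, THP-1 and U937.

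In the death receptor pathway, 5 of 18 genes were higher and 1 lower in HL60, 5 and 2 in THP-1, and 6 and 4 in U937. The tumour necrosis factor receptor TNFRSF1B rose by 2.17 ± 0.23, 1.57 ± 0.23 and 1.92 ± 0.23 in HL60, THP-1 and U937 (adjusted p = 1.21e-06, 6.95e-05 and 1.10e-05). The decoy receptor TNFRSF10D rose by 2.12 ± 0.28 in HL60 (adjusted p = 1.77e-05), 1.15 ± 0.28 in THP-1 (adjusted p = 0.00620) and 0.84 ± 0.28 in U937 (adjusted p = 0.0404). The death receptor FAS fell by 1.37 ± 0.21 in HL60 (adjusted p = 9.32e-05) and 1.08 ± 0.21 in U937 (adjusted p = 0.00119). Of 9 genes that act on the turnover or anchoring of MCL1 and BIM, none was higher, and 1, 1 and 2 were lower. USP13, a deubiquitinase known to stabilise MCL1, fell by 1.80 ± 0.29, 1.14 ± 0.29 and 1.72 ± 0.29 (adjusted p = 0.000142, 0.00791 and 0.000323). The THP-1 call was lost without THP-1 PMA 1 (adjusted p = 0.0602). FBXW7, of the same 9 genes, was called lower in U937 with a change of -0.69, a call lost under 13 of 26 alternatives. Of 17 transcription factors known to act on family genes, 4, 3 and 1 were higher and 1, 1 and 2 lower in HL60, THP-1 and U937. FOXO4 rose by 0.78 ± 0.21, 0.92 ± 0.21 and 0.73 ± 0.21 (adjusted p = 0.00985, 0.00325 and 0.0167), and the U937 call was lost without U937 DMSO 2, PMA 1 or PMA 3 (adjusted p of up to 0.0746). It was also lost with the U937 arrays alone (adjusted p = 0.126).

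Genes with the pattern most like BCL2A1 and BCL2, the 2 members with the widest range of group means, were sought over the 6 group means, each gene centred on its own mean. Closest to BCL2A1 were ITGA6 (root mean square difference 0.66 log2 units), SUCNR1 (0.93) and LPXN (0.95). Closest to BCL2 were PHLPP1 (0.23), CTPS2 (0.30) and KCNN2 (0.32). PHLPP1 averaged 5.69 with PMA and 7.66 with DMSO in HL60, 7.63 and 8.58 in THP-1, and 6.12 and 6.78 in U937. In RefSeq, PHLPP1 and BCL2 are neighbours on chromosome 18 with no protein-coding gene between their starts. The 6 points share arrays and cell lines, and the likeness is a description.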

How the data were processed

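Total RNA of 18 samples, 3 per group, was measured on Affymetrix human exon arrays. The values deposited by the authors are log2 probe-set values, made with Affymetrix Expression Console per the submitters' processing notes, in a version that was not stated. For background correction, normalization, summary method and build, nothing is stated in the labels or headers. The values run between 0.58 and 14.44. For arrays their number, not a depth, limits the precision.

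All 18 columns were used as deposited. Gene values are means of probe sets with exactly 1 symbol, in genes with at least 3. Of 16941 symbols, 14546 were current in RefSeq, 2300 were updated and 95 kept. All groups were fitted together by limma (version 3.58.1, under R 4.3.3), with 12 residual and 17.06 total degrees of freedom, 2-sided, adjusted by Benjamini-Hochberg over all features. Exon usage was tested on probe sets above the 30th percentile in genes with at least 5 of them. The scripts were tested on simulated data. The labels number the arrays without saying that cultures were separate, so p-values cover only the spread between these samples, which may be technical. Arrays of the same number within a line deviated together (correlations over genes of 0.29 to 0.79 in 9 of 9 pairs), so the number was taken to pair them in an alternative fit, the block. The main fit took group means only. Its SEs and p-values, given wherever the block is not named, leave this pairing out.

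The members and lists were chosen with earlier results of these data known. Named genes are all members, the called and the extreme probe sets of BCL2L1 and MCL1, genes among the 4 largest called changes per list and line, and the 3 nearest patterns for 2 members. BCL2L2, TNFRSF10D in U937 and probe sets of other members were named after their values were seen. Alternatives were quantile normalization, centred arrays, median polish, filters on dim probe sets or few probe sets, diffSplice, the arrays of 1 line, the array number as a block, and leaving out arrays.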

Additional observations from a re-analysis of the deposited data

Results flagged for a closer look

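These 5 effects differed between lines by limma's test of the difference itself, with adjustment over all genes. For BCL2 the PMA effect was -2.54 in HL60 and -0.82 in THP-1, a difference of -1.72, and -1.16 in U937, a difference of HL60 from U937 of -1.38. For BCL2L11 it was -1.87 in HL60, 0.26 in THP-1 and -0.25 in U937, with differences of -2.13 and -1.62. For BID it was -0.63 in HL60 and 0.74 in THP-1, a difference of -1.38. Over the 26 alternatives run on each difference, all 5 kept their sign and stayed under an adjusted p of 0.05, the highest being 0.0326 (BCL2L11, HL60 minus U937).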

How the results depend on the processing

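The calls of BCL2 in the 3 lines, of BCL2L1, MCL1, BCL2L11 and BAK1 in HL60 and of BCL2L1, MCL1, BCL2A1 and BID in THP-1 held under all 26 alternatives run on each. With the array number as a replicate block, genes called numbered 5648 in THP-1 and 5399 in U937, and differences called 2516 (HL60 minus THP-1), 2664 (HL60 minus U937) and 1647 (THP-1 minus U937). Among the members the block changed only the calls given in the report. Differences between HL60 and THP-1 numbered 2075 without both U937 arrays numbered 2, 2049 with the arrays of the 2 lines alone, 2317 after quantile normalization and 2156 with centred arrays. Those between THP-1 and U937 numbered 1395 and 1329 under these scalings. In U937, probe sets called numbered 23284 without both arrays numbered 2 and 19725 with the line alone, and exon usage calls 919 and 538, with 1203 in THP-1 alone. Members called in U937 were 5 without both arrays numbered 2, and 6 with quantile normalization or centred arrays.

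Leaving out 1 array at a time gave 901 to 2094 called differences between HL60 and THP-1, 886 to 1943 between HL60 and U937 and 560 to 1186 between THP-1 and U937. It gave 25004 to 48745 probe sets in THP-1 and 24922 to 45937 in U937, 1965 to 3533 and 1224 to 2971 exon usage calls, and 1 to 5 members called in U937. Changes near 0 turned sign in these repeats, over ranges of -0.55 to 0.015 for BCL2L11 in U937, -0.0077 to 0.059, -0.028 to 0.28 and -0.024 to 0.26 for BAX in HL60, THP-1 and U937, -0.11 to 0.12 for BID in U937, and -0.11 to 0.69, -0.47 to 0.25 and -0.37 to 0.13 for PMAIP1. So did probe set 3902490 of BCL2L1, at -0.67 to 0.78 in U937, with its index at -0.38 to 1.44 in THP-1 and -1.24 to 0.54 in U937, and probe set 2434470 of MCL1 in U937, at -0.022 to 0.23. BAX in HL60 was -0.024 with centred arrays, and BID in U937 was -0.081 with median polish and -0.042 without dim probe sets. PMAIP1 in U937 was 0.16 without both arrays numbered 2, 0.19 after quantile normalization and 0.17 with centred arrays. The cause was not tested.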
